A study of Oryza sativa Japonica Group with 29 samples.

Results

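Droughted roots of rice seedlings that over-express OsNMCP1 were compared with droughted roots of wild type seedlings of the same cultivar. The comparison used 6 of the 11 RNA libraries in a series of 29 samples, namely the 3 OsNMCP1-OE libraries and the 3 ZH11 libraries taken after drought. A locus was tested when it reached at least 1 TPM (transcript abundance, a level scaled for gene length and library total) in at least 2 of these 6 libraries. That left 22123 of the 55986 loci listed. Seedlings were 25 days old, at the 4-leaf stage, and grew in hydroponic culture, and the drought treatment was 3 h without water before the roots were taken. OE stands here for the OsNMCP1-OE plants and WT for ZH11, a rice cultivar. The labels do not give the promoter that drives the construct, the number of independent OE lines or how many seedlings were pooled per library. All 6 libraries carry genomic DNA as their molecule label while their titles name RNA sequencing and their protocol describes total RNA, and they were used as RNA. The replicates are called biological without their cultures being named, so the p-values reflect only how far these libraries spread, which may be technical.

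OsNMCP1 belongs to the plant nuclear matrix constituent proteins, long coiled-coil proteins that line the inside of the nuclear envelope and fill in plants the place that lamins have in animals. The series places it beside OsSWI3C, a subunit of SWI/SNF chromatin remodelling complexes. In a root that loses water, the hormone abscisic acid (ABA) accumulates, clade A protein phosphatases 2C are inhibited by the ABA receptors, SnRK2 kinases become active, and bZIP factors switch on genes for protective proteins such as dehydrins.

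Between libraries the depth implied by the deposited values was 8.23 to 11.95 gigabases in WT and 7.0 to 7.14 in OE, and 20110 to 21182 loci reached 1 TPM. WT replicate 3 stood apart from the other WT libraries. Its log2(TPM + 1) values correlated with WT replicates 1 and 2 at 0.9166 and 0.9358, whereas WT replicates 1 and 2 correlated at 0.9793 and the OE libraries with each other at 0.9559 to 0.9728. With the OE libraries WT replicate 3 correlated at 0.9099 to 0.919, about as with WT replicate 1. On the first principal component, with 60.23% of the variance, it lay at -24.5. The other WT libraries lay at -88.8 and -66.7 there, and the OE libraries between 43.6 and 76.5. On the second principal component, with 18.14% of the variance, WT replicate 3 lay at 76.8 and the other 5 libraries between -26.7 and -8.5. OE replicate 3 also departed from its group, though less. In a fit that weighted libraries by their spread, WT replicate 3 had a weight of 0.296, OE replicate 3 of 0.475 and the others of 1.1 to 2.38. Counts over all loci and over all list members, and the calls made over the 6 libraries, are given with and without WT replicate 3. Genes not called over the 6 libraries may pass without it, and not all of these are given. Where single libraries are left out below, WT1 to WT3 and OE1 to OE3 stand for the WT and OE replicates.

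**Figure D1:**
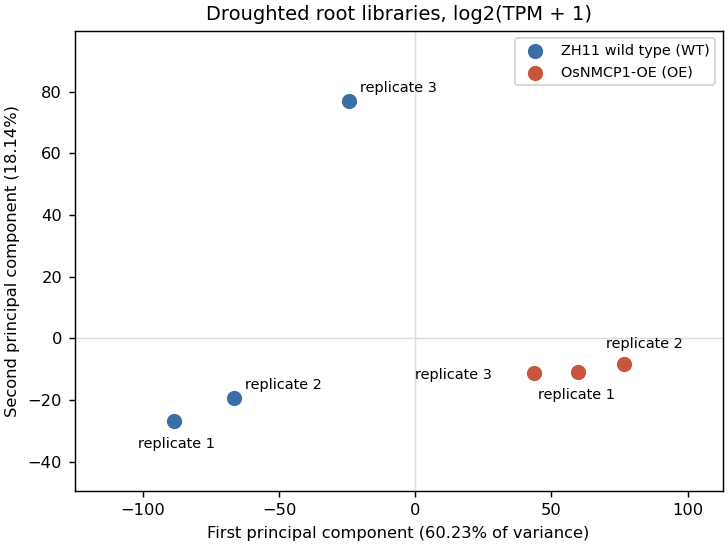
First 2 principal components of log2(TPM + 1) over the tested loci for the 6 droughted libraries, in component units, with 1 point per library. The WT and OE libraries separate along the first component (60.2% of variance), and WT replicate 3 lies alone at 76.8 on the second (18.14%).

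The gene raised by the construct was read first. OsNMCP1 (LOC_Os01g56140) lies on chromosome 1, 32327698 to 32332777 of the files' coordinates, whose genome build is not given in the sources used here. It measured 37.4, 28.1 and 46.4 TPM in the WT libraries and 452, 424 and 347 TPM in the OE libraries. Every OE library was above every WT library, and the mean level was 10.9 times that of WT. A difference is, here and below, the mean log2(TPM + 1) of OE minus that of WT, and it was 3.44 (SE 0.23, adjusted p = 0.00150) for OsNMCP1 by limma with Benjamini-Hochberg adjustment over all tested loci. An exact two-sided permutation test gave p = 0.1, the smallest value that 3 against 3 libraries allow. NMCP1A (LOC_Os02g48010), another gene of the family, measured 35.0 to 49.6 TPM in WT and 33.4 to 41.3 TPM in OE, a difference of -0.12 (SE 0.19, adjusted p = 0.686). SWI3C1 (LOC_Os11g08080), a SWI3C gene, measured 27.7 to 28.2 TPM in WT and 22.3 to 24.9 TPM in OE, a difference of -0.24 (SE 0.15, adjusted p = 0.284). Neither passed the test, and the OsNMCP1 call held whichever library was left out. The sign of the NMCP1A difference turned under median-ratio scaling, where it was 0.11.

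Across the genome, 3543 loci were called at an adjusted p under 0.05, which is 16.0% of those tested, with 1270 higher in OE (5.74%) and 2273 lower (10.3%). Called loci that were higher had a median difference of 1.43 and those that were lower a median of -1.16. At least 2-fold changes on the log2(TPM + 1) scale numbered 1020 higher and 1501 lower, and at least 8-fold changes numbered 88 higher and 32 lower. In none of the called loci did the OE and WT libraries overlap, while the libraries did not overlap in 40.8% of all tested loci. Every OE library was above every WT library in 12.9% of all tested loci and below in 27.8%. Lack of overlap in a called gene thus adds nothing to its call, here and below.

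The balance of rises and falls rested on the scaling. The median difference over all tested loci was -0.21 as deposited, and median-ratio scaling of the TPM values, which takes the typical locus as level, moved it to -0.01. After that scaling 2956 loci were called (13.4%), of which 1753 were higher (7.92%) and 1203 lower (5.44%), so that the share of called loci that were higher went from 35.85% to 59.3%. Of the 1270 loci called higher on deposited TPM, 1266 were also called higher after scaling. Of the 2273 called lower, 1203 were also called lower. Without WT replicate 3 the calls numbered 6317 (28.6%), of which 40.24% were higher, and 3370 of the 3543 calls were among them. Of the 3543 calls, 487 were made whichever of the 6 libraries was omitted, and all 487 were also made after median-ratio scaling. Leaving out 1 library gave from 314 (without WT2) to 2542 (without WT3) loci called higher, and from 283 (without OE2) to 3775 (without WT3) called lower.

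**Figure D2:**
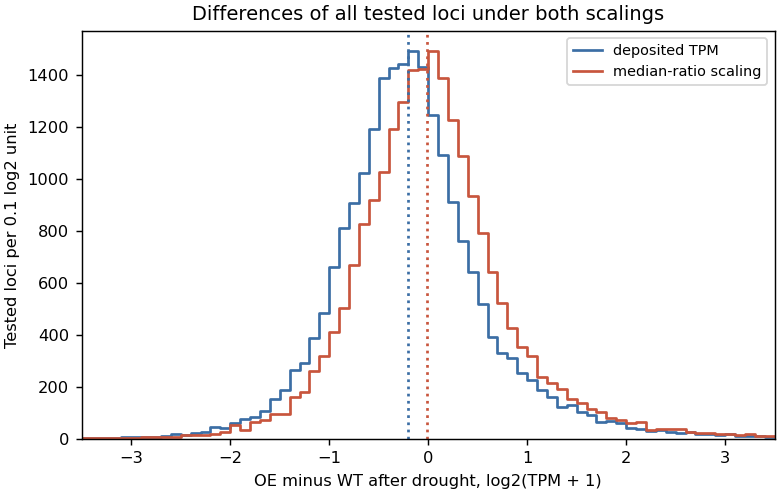
Number of tested loci per 0.1 log2 unit (y axis) against the difference OE minus WT after drought in log2(TPM + 1) (x axis), for deposited TPM and after median-ratio scaling. Dotted lines mark the medians over all tested loci, -0.21 and -0.01, and the curve after scaling is shifted to the right.

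Genes are described below by their role, in 47 lists of genes with known functions that hold 350 accepted gene names. Of these genes 324 were tested, 47 were called higher (14.5%, against 5.74% of all tested loci) and 54 lower (16.7%, against 10.3%), 223 were not called and 26 were too low to be tested. With 1 library left out these counts ran from 17 (without OE2) to 66 (without WT3) higher, and from 10 (without WT2) to 87 (without WT3) lower. Because the lists were made with earlier results of these data known, nothing is read from their shares being above those of all tested loci. The lists are described by such counts and by their median difference, beside -0.21 for all tested loci. Roots were sequenced in bulk, so that fewer cells of a type and less RNA per cell cannot be told apart. Reads of close copies may have been split between them, which concerns the RAB16 genes, ADH1 and ADH2, CM-LOX1 and CM-LOX2, RR9 and RR10, the aquaporins, the CAB genes and the small heat shock proteins.

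Genes of the ABA pathway were called higher in OE, and none lower, in 4 lists, with 5 of 8 clade A protein phosphatases, 2 of 2 bZIP factors, 2 of 9 SnRK2 kinases and 3 of 5 genes of ABA synthesis and breakdown. Clade A protein phosphatases 2C, the brakes of ABA signalling that are themselves ABA-induced, had a median difference of 1.59. PP2C30 (LOC_Os03g16170) measured 22.4, 27.8 and 17.4 TPM in the WT libraries and 223, 252 and 184 TPM in the OE libraries, and its difference was 3.24 (SE 0.22, adjusted p = 0.00156). PP2C68 (LOC_Os09g15670) measured 32.4, 29.5 and 51.3 TPM in the WT libraries and 397, 354 and 271 TPM in the OE libraries, and its difference was 3.17 (SE 0.26, adjusted p = 0.00263). In both genes the lowest OE library was several times the highest WT library. PP2C49 (LOC_Os05g38290) measured 8.83, 21.4 and 14.8 TPM in the WT libraries and 90.8, 86.0 and 60.1 TPM in the OE libraries, a difference of 2.38 (SE 0.33, adjusted p = 0.00915). PP2C09 (51.2 to 134 TPM in WT and 258 to 290.5 TPM in OE) rose by 1.87 (adjusted p = 0.0203) and PP2C06 (71.3 to 83.2 TPM in WT and 161 to 214 TPM in OE) by 1.304 (adjusted p = 0.00909). PP2C08, PP2C51 and PP2C53 were not called, with differences from 0.33 to 0.92. With 1 library left out at a time, the calls of PP2C30, PP2C68, PP2C49 and PP2C06 held, and calls ended for PP2C09 without WT1, WT2, OE1 or OE2 (adjusted p from 0.0612 to 0.0792).

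The bZIP factors that bind ABA-responsive elements rose with smaller differences. BZIP23 (LOC_Os02g52780), known for its part in drought tolerance, measured 132, 126 and 80.3 TPM in the WT libraries and 271, 215 and 233 TPM in the OE libraries, a difference of 1.11 (SE 0.24, adjusted p = 0.0284). TRAB1 (LOC_Os08g36790), which acts with VP1 in ABA-regulated transcription, measured 19.7 to 21.7 TPM in WT and 33.0 to 34.5 TPM in OE, a difference of 0.70 (SE 0.15, adjusted p = 0.0292). VP1 itself was below 1 TPM in all 6 libraries and was not tested. Among SnRK2 kinases 2 of 9 rose, SAPK1 (LOC_Os03g27280) with 33.6, 33.0 and 58.5 TPM in the WT libraries and 138, 202 and 144 TPM in the OE libraries and SAPK6 with 28.9 to 75.9 TPM in WT and 108 to 134 TPM in OE. Their differences were 1.96 (SE 0.28, adjusted p = 0.00987) and 1.47 (SE 0.35, adjusted p = 0.0355). The other 7 kinases were not called and lay between -0.81 and 0.80. Of the 9 kinases, 2 were called higher and 1 lower without WT3. When single libraries were left out, the call of SAPK1 held, and calls ended for BZIP23 and TRAB1 without WT1, WT2, OE1 or OE2, for SAPK6 without WT1, WT2, OE1, OE2 or OE3 (adjusted p from 0.0555 to 0.121).

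Of 5 tested genes that make or break down ABA 3 rose, with a median difference of 1.77 over the list. NCED3 (LOC_Os03g44380), whose dioxygenase cleaves carotenoids in the rate-limiting step of ABA synthesis, measured 10.8, 11.7 and 11.5 TPM in the WT libraries and 88.5, 75.4 and 57.7 TPM in the OE libraries. The WT libraries were almost equal and every OE library was above them, a difference of 2.58 (SE 0.20, adjusted p = 0.00225). ABA 8'-hydroxylases inactivate the hormone. ABA8OX2 (LOC_Os08g36860) measured 3.06, 4.34 and 6.39 TPM in the WT libraries and 12.9, 24.06 and 17.2 TPM in the OE libraries, a difference of 1.77 (SE 0.31, adjusted p = 0.0173), and ABA8OX3 measured 0.262 to 2.99 TPM in WT and 3.89 to 12.8 TPM in OE, a difference of 1.97 (SE 0.53, adjusted p = 0.0470). ABA8OX1 (LOC_Os02g47470) lay the other way, with 302, 142 and 31.0 TPM in the WT libraries and 24.11, 19.2 and 24.6 TPM in the OE libraries. Its difference of -2.25 (adjusted p = 0.0767) did not pass the test over all 6 libraries. ZEP, the zeaxanthin epoxidase upstream of NCED3, was not called (0.22). In the fits without 1 library, the call of NCED3 held, and calls ended for ABA8OX2 without WT1, WT2 or OE2, for ABA8OX3 without WT1, WT2, OE1 or OE2 (adjusted p from 0.0607 to 0.149). ABA8OX1 passed the test only without WT3 (adjusted p = 0.00320). The omission of 1 library moved the difference of ABA8OX1 to -1.52 (without WT1) and -3.15 (without WT3).

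Late embryogenesis abundant proteins and dehydrins, which protect proteins and membranes in drying cells, had 4 of 7 members higher, none lower, and a median difference of 2.72. The RAB16 dehydrin genes form a tandem cluster on chromosome 11, from RAB16D to RAB21. RAB16C (LOC_Os11g26760), on chromosome 11, 15327768 to 15328657, measured 1.87, 20.0 and 2.99 TPM in the WT libraries and 169, 155 and 117 TPM in the OE libraries, the largest rise among called named genes at 4.56 (SE 0.69, adjusted p = 0.0112). RAB16B measured 0.759, 10.4 and 0.755 TPM in the WT libraries and 25.6, 40.1 and 28.8 TPM in the OE libraries, a difference of 3.29 (SE 0.71, adjusted p = 0.0292). WT replicate 2 was the highest WT library for every gene of the cluster, and no OE library of RAB16B or RAB16C overlapped with it. RAB21 measured 2.95, 48.0 and 5.96 TPM in the WT libraries and 80.0, 84.1 and 20.3 TPM in the OE libraries, and RAB16D measured 6.68, 59.2 and 21.7 TPM in the WT libraries and 27.2, 39.6 and 10.2 TPM in the OE libraries. The libraries of these other two overlapped, with differences of 2.26 (adjusted p = 0.144) and 0.095 (adjusted p = 0.941). Whether the genes of the cluster differed from each other was not tested. Leaving out libraries in turn, calls ended for RAB16C without OE2, for RAB16B without WT1, OE1, OE2 or OE3 (adjusted p from 0.05005 to 0.103). Single omissions moved the difference of RAB16C to 5.43 (without WT2), that of RAB16B to 4.18 (without WT2), that of RAB21 to 1.51 (without WT1), 3.33 (without WT2) and 2.91 (without OE3), that of RAB16D to -0.66 (without WT1) and 0.82 (without WT2).

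LEA3 (LOC_Os05g46480), a group 3 protein, measured 3.70, 82.9 and 13.2 TPM in the WT libraries and 180.4, 328 and 170.5 TPM in the OE libraries, a difference of 3.61 (SE 0.95, adjusted p = 0.0452). EMP1 (LOC_Os05g28210), a protein of the Em type known from seeds, measured 0.146, 0.244 and 0.450 TPM in the WT libraries and 7.37, 6.86 and 8.05 TPM in the OE libraries, a difference of 2.72 (SE 0.19, adjusted p = 0.00163). EMP1 was below 1 TPM in every WT library, so it was tested through its OE libraries alone. The log2(TPM + 1) scale compresses the spread of values this low, and nothing is read from the small SE of EMP1. The LEA3 libraries spread widely in WT. LIP9 (LOC_Os02g44870), an abundant dehydrin, measured 1448, 2436 and 3534 TPM in the WT libraries and 5421, 6009 and 3818 TPM in the OE libraries, a difference of 1.11 (adjusted p = 0.102). Of these genes, when 1 library was left out, the call of EMP1 held, and calls ended for LEA3 without WT1, WT3, OE1, OE2 or OE3 (adjusted p from 0.0614 to 0.143). LIP9 passed the test only without WT3 (adjusted p = 0.0363). A left-out library moved the difference of LEA3 to 2.65 (without WT1) and 4.73 (without WT2).

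**Figure D3:**
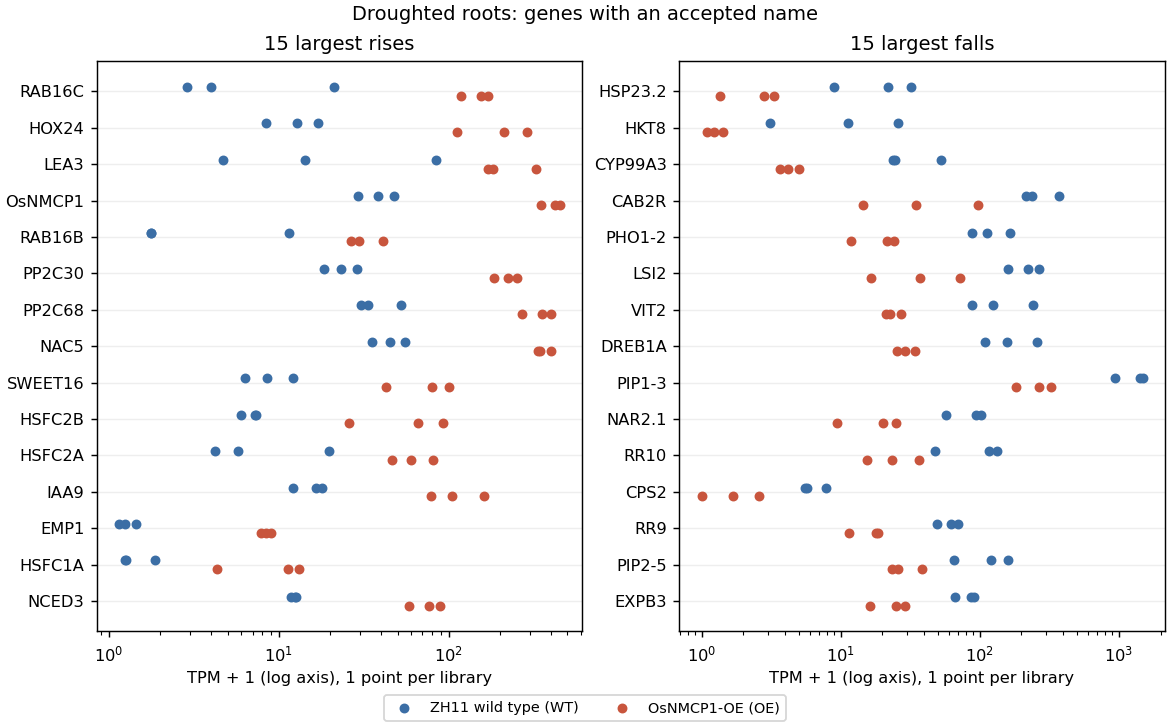
TPM + 1 (log axis) in each of the 6 droughted libraries for the 15 named genes that were called with the largest rise and the 15 with the largest fall, 1 point per library. For every gene shown the WT and OE libraries do not overlap, which was a condition of the choice, from RAB16C at the top of the rises to HSP23.2 at the top of the falls.

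Several families of transcription factors had members that rose. Stress NAC factors had 2 of 5 higher. NAC5 (LOC_Os11g08210) measured 43.8, 34.4 and 54.3 TPM in the WT libraries and 399.7, 343 and 336 TPM in the OE libraries, a difference of 3.02 (SE 0.21, adjusted p = 0.00156), and NAC2 measured 36.5 to 70.1 TPM in WT and 111 to 125 TPM in OE, a difference of 1.20 (SE 0.25, adjusted p = 0.0261). NAC3, NAC4 and NAC45 were not called and lay between -0.58 and 0.90. Of the 5 NAC factors, 4 were called higher and 1 lower without WT3. Homeodomain-leucine zipper factors of class I, many of which respond to ABA and water deficit, had 2 of 8 higher and 1 lower. HOX24 (LOC_Os02g43330) measured 11.8, 7.45 and 16.05 TPM in the WT libraries and 290.0, 210.3 and 110.5 TPM in the OE libraries, a difference of 3.96 (SE 0.40, adjusted p = 0.00422), so its lowest OE library was several times its highest WT library. HOX22, a close relative, measured 28.8 to 46.5 TPM in WT and 105 to 217 TPM in OE, a difference of 2.12 (SE 0.32, adjusted p = 0.0112). HOX13 (LOC_Os03g08960) measured 56.7, 35.5 and 20.9 TPM in the WT libraries and 12.6, 11.7 and 13.2 TPM in the OE libraries, a difference of -1.41 (SE 0.34, adjusted p = 0.0370). The other 5 lay between -1.37 and 1.32. Of the 8 class I factors, 4 were called higher and 1 lower without WT3. Under the omission of 1 library, the calls of NAC5 and HOX24 held, and calls ended for HOX22 without WT2 or OE2, for NAC2 without WT1, WT2, OE1 or OE2, for HOX13 without WT1, WT2, OE1, OE2 or OE3 (adjusted p from 0.0510 to 0.122). With median-ratio scaling HOX13 was not called (adjusted p = 0.0613).

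Heat shock factors had 4 of 19 members higher and none lower, with a median of 0.25, and 3 of the 4 were of class C. HSFC2B (LOC_Os06g35960) measured 6.34, 6.24 and 4.97 TPM in the WT libraries and 92.1, 64.6 and 24.7 TPM in the OE libraries, and HSFC2A (LOC_Os02g13800) measured 3.2, 4.75 and 18.8 TPM in the WT libraries and 59.3, 79.5 and 45.2 TPM in the OE libraries. HSFC1A (LOC_Os01g43590) measured 0.258, 0.241 and 0.877 TPM in the WT libraries and 10.3, 12.1 and 3.34 TPM in the OE libraries. Their differences were 2.98 (SE 0.45, adjusted p = 0.0112), 2.96 (SE 0.56, adjusted p = 0.0212) and 2.59 (SE 0.44, adjusted p = 0.0154). HSFC1A was below 1 TPM in every WT library, so it was tested through its OE libraries alone. Its WT spread is compressed on the log2(TPM + 1) scale. HSFA2D was also higher, at 0.758 to 1.78 TPM in WT and 3.12 to 3.53 TPM in OE, a difference of 1.07 (SE 0.24, adjusted p = 0.0308). The remaining class C factor, HSFC1B, was not called at 0.25. Of 4 tested heat shock protein genes none was higher and 2 were lower. HSP23.2 (LOC_Os04g36750) measured 31.3, 20.8 and 8.03 TPM in the WT libraries and 1.79, 0.365 and 2.34 TPM in the OE libraries, the largest fall among called named genes at -2.99 (SE 0.53, adjusted p = 0.0179), and HSP18.0 measured 5.20 to 6.27 TPM in WT and 2.17 to 3.31 TPM in OE, a difference of -0.96 (SE 0.21, adjusted p = 0.0313). That rank was narrow, with the transporter gene HKT8 at -2.96. HKT8 fell further than HSP23.2 after median-ratio scaling (-2.834 against -2.821) and without WT3 (-3.78 against -3.51). With each library left out in turn, calls ended for HSFC2B without WT2 or OE2; HSFC1A and HSP23.2 without WT1, WT2 or OE2; HSFC2A without WT1, WT2, OE1 or OE2; HSFA2D without WT2, OE1, OE2 or OE3; HSP18.0 without WT1, WT2, OE1, OE2 or OE3 (adjusted p from 0.0510 to 0.118). The omission of 1 library moved the difference of HSFC2A to 3.63 (without WT3). With median-ratio scaling HSP18.0 was not called (adjusted p = 0.0594).

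DREB factors, which bind the dehydration-responsive element, split. DREB2B (LOC_Os05g27930), of the DREB2 type known from drought and heat, measured 22.8, 33.8 and 57.6 TPM in the WT libraries and 95.5, 82.6 and 80.5 TPM in the OE libraries, a difference of 1.25 (SE 0.32, adjusted p = 0.0426). DREB1A (LOC_Os09g35030), of the DREB1 type known from cold, measured 259, 156 and 108 TPM in the WT libraries and 28.1, 33.2 and 24.4 TPM in the OE libraries, a difference of -2.49 (SE 0.32, adjusted p = 0.00800). The lowest WT library of DREB1A was above every OE library, and that of DREB2B below. Its neighbour on chromosome 9, DREB1B, measured 467, 189 and 5.30 TPM in the WT libraries and 27.3, 23.1 and 19.6 TPM in the OE libraries, where WT replicate 3 stood far below the other WT libraries, and its difference was -1.77 (adjusted p = 0.404). DREB1C, DREB1F and DREB1G were not called and lay between -1.20 and 0.96. Of the 6 tested DREB genes, 1 was called higher and 3 lower without WT3. In the WRKY list none of 4, in the MYB list none of 5 and in the PR gene list neither of 2 was called, with medians of 0.19, -0.29 and 0.84. After median-ratio scaling 1 WRKY and 1 MYB gene were called higher. Without WT3, 1 WRKY gene was lower, 2 MYB genes were higher and 2 lower, and 1 PR gene was higher. With 1 library left out at a time, the call of DREB1A held, and calls ended for DREB2B without WT1, WT2, OE1, OE2 or OE3 (adjusted p from 0.0688 to 0.126). DREB1B passed the test only without WT3 (adjusted p = 0.00320). Single omissions moved the difference of DREB1B to -0.52 (without WT1), -1.17 (without WT2) and -3.63 (without WT3).

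Genes of low-oxygen metabolism, which keep glycolysis running by fermentation, had 3 of 5 members higher and a median of 1.49. ADH2 (LOC_Os11g10510), an alcohol dehydrogenase gene, measured 184, 197 and 240.5 TPM in the WT libraries and 919, 699 and 1339.5 TPM in the OE libraries, a difference of 2.201 (SE 0.28, adjusted p = 0.00768). Its neighbour ADH1 (LOC_Os11g10480) measured 76.3, 87.1 and 86.4 TPM in the WT libraries and 199, 303 and 229.9 TPM in the OE libraries, a difference of 1.52 (SE 0.20, adjusted p = 0.00830). HB2 (LOC_Os03g12510), a non-symbiotic haemoglobin that scavenges nitric oxide, measured 54.1, 57.8 and 26.8 TPM in the WT libraries and 126, 128 and 119.6 TPM in the OE libraries, a difference of 1.48 (SE 0.30, adjusted p = 0.0239). In each of the 3 genes the groups were apart, as in all called loci. PDC2, a pyruvate decarboxylase gene, measured 105 to 164 TPM in WT and 195 to 499 TPM in OE, and HB1 measured 91.7 to 139 TPM in WT and 164 to 302 TPM in OE. Their libraries did not overlap either, but OE replicate 3 stood far above the other OE libraries in both, and the differences of 1.01 (adjusted p = 0.108) and 0.73 (adjusted p = 0.131) did not pass. When single libraries were left out, the calls of ADH2 and ADH1 held, and calls ended for HB2 without WT1, WT2, OE1 or OE2 (adjusted p from 0.0551 to 0.0887).

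Among genes of jasmonate synthesis and signalling, 3 of 10 were higher. Lipoxygenases CM-LOX1 and CM-LOX2, neighbours on chromosome 8, open the oxidation of linolenic acid from which jasmonate is made. CM-LOX2 (LOC_Os08g39850) measured 22.0, 17.1 and 33.7 TPM in the WT libraries and 97.1, 72.2 and 63.8 TPM in the OE libraries, a difference of 1.67 (SE 0.28, adjusted p = 0.0155), and CM-LOX1 measured 14.6 to 28.5 TPM in WT and 41.8 to 59.1 TPM in OE, a difference of 1.21 (SE 0.28, adjusted p = 0.0333). JAMYB (LOC_Os11g45740), a jasmonate-induced MYB factor, measured 17.74, 23.1 and 55.1 TPM in the WT libraries and 90.2, 102 and 87.7 TPM in the OE libraries, a difference of 1.68 (SE 0.39, adjusted p = 0.0341). The allene oxide synthases AOS1 to AOS4, the reductase OPR7, JAR1 and the receptor gene COI1B were not called, between -0.68 and 1.47. Repressors of the JAZ family, which jasmonate induces, had none of 10 members called and a median of 0.20. Of these 10, 1 was called lower without WT3. In the fits without 1 library, calls ended for CM-LOX2 without WT1, WT2 or OE2, for CM-LOX1 without WT1, WT2, OE1 or OE2, for JAMYB without WT1, WT2, OE1, OE2 or OE3 (adjusted p from 0.0579 to 0.115).

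Of 14 auxin genes 2 were called, both higher, and the median of the list was 0.07. IAA9 (LOC_Os02g56120), an Aux/IAA repressor, measured 11.05, 15.5 and 17.1 TPM in the WT libraries and 103, 159.8 and 77.3 TPM in the OE libraries, a difference of 2.84 (SE 0.30, adjusted p = 0.00468), and GH3.2 (LOC_Os01g55940), which conjugates auxin to amino acids, measured 15.4 to 18.3 TPM in WT and 24.4 to 42.0 TPM in OE, a difference of 0.97 (SE 0.23, adjusted p = 0.0366). In the cytokinin list 4 of 10 were lower and 1 higher, with a median of -0.87. RR9 (LOC_Os11g04720) measured 48.5, 69.0 and 61.6 TPM in the WT libraries and 10.5, 17.04 and 17.6 TPM in the OE libraries, and RR10 (LOC_Os12g04500) measured 46.9, 116 and 133 TPM in the WT libraries and 14.5, 35.9 and 22.3 TPM in the OE libraries. Both are type-A response regulators, which cytokinin induces, and every OE library was below every WT library, with differences of -1.94 (SE 0.25, adjusted p = 0.00787) and -1.94 (SE 0.47, adjusted p = 0.0366). Cytokinin oxidases degrade the hormone, and CKX3 (1.76 to 5.75 TPM in WT and 0.448 to 0.924 TPM in OE) and CKX4 (19.2 to 29.6 TPM in WT and 6.01 to 13.99 TPM in OE) were lower, with differences of -1.37 (adjusted p = 0.0394) and -1.35 (adjusted p = 0.0378). LOG (LOC_Os01g40630), which releases active cytokinin, measured 116, 178 and 207 TPM in the WT libraries and 413, 369.9 and 366 TPM in the OE libraries, a difference of 1.23 (SE 0.25, adjusted p = 0.0239). Leaving out libraries in turn, the calls of IAA9 and RR9 held, and calls ended for GH3.2 and CKX4 without WT1, WT2, OE2 or OE3, for RR10 without WT2, OE1, OE2 or OE3, for LOG without WT1, WT2, OE1 or OE2, for CKX3 without WT1, WT2, OE1, OE2 or OE3 (adjusted p from 0.0528 to 0.133). With median-ratio scaling RR10 and CKX4 were not called (adjusted p from 0.0621 to 0.0741).

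Of 7 ethylene genes 2 were lower, both receptors. ETR2 (LOC_Os04g08740) measured 49.2, 49.2 and 57.4 TPM in the WT libraries and 15.8, 12.7 and 16.6 TPM in the OE libraries, a difference of -1.73 (SE 0.18, adjusted p = 0.00422), and ERS1 measured 52.9 to 61.5 TPM in WT and 34.4 to 39.2 TPM in OE, a difference of -0.64 (SE 0.16, adjusted p = 0.0383). ACS1, ACS2, ACO1, ERS2 and EIN2 were not called. KAO (LOC_Os06g02019), whose oxidase makes the first gibberellin of the pathway, measured 4.63, 2.99 and 3.60 TPM in the WT libraries and 10.4, 7.11 and 10.5 TPM in the OE libraries, a difference of 1.12 (SE 0.24, adjusted p = 0.0287), and was the called member among 8 gibberellin genes. Of these genes, when 1 library was left out, the call of ETR2 held, and calls ended for ERS1 without WT1, WT2, OE1 or OE2, for KAO without WT1, WT2, OE1, OE2 or OE3 (adjusted p from 0.0507 to 0.144). With median-ratio scaling ERS1 was not called (adjusted p = 0.0929).

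Sugar genes had 3 of 15 members higher and 3 lower. SWEET16 (LOC_Os03g22200), of the sugar exporters known in Arabidopsis to sit at the vacuole, measured 7.503, 5.35 and 11.1 TPM in the WT libraries and 99.8, 78.7 and 41.9 TPM in the OE libraries, a difference of 3.01 (SE 0.37, adjusted p = 0.00740). SUT1 (LOC_Os03g07480), a sucrose transporter, measured 1.73, 1.22 and 3.59 TPM in the WT libraries and 12.9, 15.6 and 12.6 TPM in the OE libraries, a difference of 2.27 (SE 0.30, adjusted p = 0.00823). CIN1 (LOC_Os02g33110), a cell wall invertase, measured 30.0 to 52.5 TPM in WT and 110.3 to 193 TPM in OE, a difference of 1.82 (SE 0.31, adjusted p = 0.0152). In these 3 genes every OE library was above every WT library, as in all loci called higher. SWEET14 (LOC_Os11g31190) measured 31.7, 25.1 and 24.3 TPM in the WT libraries and 8.26, 4.60 and 10.6 TPM in the OE libraries, a difference of -1.72 (SE 0.30, adjusted p = 0.0158). CIN2, another cell wall invertase, measured 16.3 to 31.0 TPM in WT and 3.03 to 11.8 TPM in OE, and SUS1, a sucrose synthase, 585 to 921 TPM in WT and 231 to 426 TPM in OE. Their differences were -1.71 (SE 0.45, adjusted p = 0.0452) and -1.37 (SE 0.30, adjusted p = 0.0309). So within both the SWEET and the invertase genes members were called in either direction. Under the omission of 1 library, the calls of SWEET16 and SUT1 held, and calls ended for SWEET14 without WT1 or WT2, for CIN1 without WT1, WT2 or OE2, for CIN2 and SUS1 without WT1, WT2, OE1 or OE2 (adjusted p from 0.0505 to 0.140). With median-ratio scaling CIN2 and SUS1 were not called (adjusted p from 0.0503 to 0.0632).

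Diterpenoid phytoalexin synthesis had 6 of 11 tested members lower, none higher, and a median of -1.37. These antimicrobial compounds are made by enzymes whose genes lie in a cluster on chromosome 4 for momilactones and in a cluster on chromosome 2 that includes the genes for phytocassanes. From the chromosome 4 cluster, CYP99A3 (LOC_Os04g09920), on chromosome 4, 5332329 to 5334479, measured 51.5, 23.7 and 22.9 TPM in the WT libraries and 4.04, 2.65 and 3.16 TPM in the OE libraries, a difference of -2.89 (SE 0.34, adjusted p = 0.00630). CPS4 (LOC_Os04g09900), the first enzyme of that branch, measured 64.8, 38.7 and 43.8 TPM in the WT libraries and 22.3, 13.4 and 13.8 TPM in the OE libraries, a difference of -1.52 (SE 0.28, adjusted p = 0.0191). CYP99A2 measured 5.69 to 9.20 TPM in WT and 1.32 to 3.22 TPM in OE, a difference of -1.42 (SE 0.29, adjusted p = 0.0256), and KSL4 of the same cluster was not called at 0.13. From the chromosome 2 cluster, CPS2 (LOC_Os02g36210) measured 4.51, 6.80 and 4.73 TPM in the WT libraries and 1.59, 0.678 and 0 TPM in the OE libraries, a difference of -1.94 (SE 0.36, adjusted p = 0.0204), with OE replicate 3 listed at 0. CYP76M5 measured 3.03 to 3.30 TPM in WT and 0.117 to 1.14 TPM in OE and CYP71Z7 5.398 to 7.33 TPM in WT and 1.23 to 3.62 TPM in OE, with differences of -1.37 (SE 0.27, adjusted p = 0.0222) and -1.16 (SE 0.30, adjusted p = 0.0442). The other members of this cluster that were tested, KSL7, CYP76M6 and CYP76M8, lay between -1.38 and -0.98 and were not called. With each library left out in turn, the call of CYP99A3 held, and calls ended for CPS4, CYP99A2, CPS2 and CYP76M5 without WT1, WT2 or OE2, for CYP71Z7 without WT1, WT2, WT3, OE1, OE2 or OE3 (adjusted p from 0.0532 to 0.131). With median-ratio scaling CYP71Z7 was not called (adjusted p = 0.0815).

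Cellulose synthases of the primary wall had 5 of 6 members lower and a median of -1.35. Every OE library was below every WT library in all 6, as it was in 27.8% of all tested loci. CESA5 (LOC_Os03g62090) measured 120.2, 124 and 62.0 TPM in the WT libraries and 25.1, 31.6 and 31.0 TPM in the OE libraries, a difference of -1.71 (SE 0.29, adjusted p = 0.0155). CESA1 measured 212 to 326 TPM in WT and 68.2 to 143 TPM in OE, CESA3 154 to 225 TPM in WT and 61.3 to 124 TPM in OE, CESA6 254 to 556 TPM in WT and 114 to 202 TPM in OE and CESA8 162 to 266 TPM in WT and 56.3 to 120.3 TPM in OE. Their differences were -1.36 (adjusted p = 0.0327), -1.18 (adjusted p = 0.0391), -1.34 (adjusted p = 0.0438) and -1.42 (adjusted p = 0.0326). CESA2 measured 19.6 to 23.5 TPM in WT and 9.70 to 14.4 TPM in OE and did not pass, at -0.75 (adjusted p = 0.0503). Of these, CESA5 alone was called after median-ratio scaling, which brought the count from 5 to 1. The secondary wall synthases CESA4, CESA7 and CESA9 had differences of -1.15 (adjusted p = 0.0642), -1.06 (adjusted p = 0.0737) and -1.01 (adjusted p = 0.0835). Among lignin enzymes, CAD2, the last step towards the lignin monomers, measured 449 to 553 TPM in WT and 219.6 to 249 TPM in OE, and HCT1, an acyltransferase, 119 to 173 TPM in WT and 70.5 to 94.1 TPM in OE. Their differences were -1.06 (SE 0.18, adjusted p = 0.0157) and -0.85 (SE 0.21, adjusted p = 0.0370). The 4CL genes were not called, between -0.65 and -0.21. With 1 library left out at a time, calls ended for CESA5, CESA1, CESA3, CESA8 and CAD2 without WT1, WT2, OE1 or OE2, for CESA6 and HCT1 without WT1, WT2, OE1, OE2 or OE3 (adjusted p from 0.05003 to 0.136). CESA2, CESA4, CESA7 and CESA9 passed the test only without WT3 (adjusted p from 0.0230 to 0.0395). With median-ratio scaling CESA1, CESA3, CESA6, CESA8 and HCT1 were not called (adjusted p from 0.0533 to 0.0833).

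Expansins, which loosen walls during growth, had 1 of 14 higher and 1 lower. EXPB3 (LOC_Os10g40720) measured 86.3, 90.3 and 65.6 TPM in the WT libraries and 15.2, 28.0 and 24.0 TPM in the OE libraries, a difference of -1.84 (SE 0.26, adjusted p = 0.00994), and EXPA5 (LOC_Os02g51040) measured 17.03 to 32.4 TPM in WT and 39.0 to 63.4 TPM in OE, a difference of 1.15 (SE 0.30, adjusted p = 0.0435). Among root patterning regulators 2 of 5 were lower. SHR1 measured 3.41, 2.12 and 5.82 TPM in the WT libraries and 1.06, 0.574 and 1.17 TPM in the OE libraries, and SHR2 measured 2.65, 2.96 and 7.46 TPM in the WT libraries and 0.932, 0.533 and 0.989 TPM in the OE libraries. Both encode SHORT-ROOT factors, which in Arabidopsis move from the stele to specify the endodermis, and their differences were -1.25 (SE 0.32, adjusted p = 0.0417) and -1.46 (SE 0.35, adjusted p = 0.0363). The SCARECROW genes SCR1 and SCR2 were not called, at -0.50 and -0.48. All 15 cell cycle and replication genes had a difference below 0, with a median of -1.03, also after median-ratio scaling, where they lay between -1.23 and -0.10. Over all tested loci the median was itself below 0, at -0.21 as deposited and -0.01 after that scaling. These genes share their libraries and are not 15 separate observations. OE replicate 3 was the highest OE library for 14 of the 15. Of the 15, 1 was called lower, beside 10.3% of all tested loci. MCM5 (LOC_Os02g55410), of the replicative helicase, measured 9.86, 6.85 and 9.42 TPM in the WT libraries and 2.35, 1.69 and 4.50 TPM in the OE libraries, a difference of -1.39 (SE 0.31, adjusted p = 0.0313). When single libraries were left out, calls ended for EXPB3 without WT2, for MCM5 without WT1, WT2, OE1 or OE2, for EXPA5, SHR1 and SHR2 without WT1, WT2, OE1, OE2 or OE3 (adjusted p from 0.0502 to 0.142). With median-ratio scaling SHR1 was not called (adjusted p = 0.0524).

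Silicon enters the root through the channel LSI1 and leaves towards the stele through LSI2, and 2 of 3 silicon transporter genes fell. LSI1 (LOC_Os02g51110) measured 354, 345 and 377 TPM in the WT libraries and 179.5, 76.3 and 105 TPM in the OE libraries, a difference of -1.66 (SE 0.31, adjusted p = 0.0201). LSI2 (LOC_Os03g01700) measured 223, 264 and 159 TPM in the WT libraries and 71.9, 15.5 and 36.0 TPM in the OE libraries, a difference of -2.58 (SE 0.51, adjusted p = 0.0234). The third, LSI6, was not called at -0.70. PHO1-2 (LOC_Os02g56510), which loads phosphate into the xylem, measured 165, 113 and 86.8 TPM in the WT libraries and 20.6, 10.9 and 23.1 TPM in the OE libraries, a difference of -2.69 (SE 0.34, adjusted p = 0.00773). SPX2, a sensor of phosphate status, was the phosphate gene that rose, from 0.864 to 2.99 TPM in WT and 4.46 to 5.93 TPM in OE, a difference of 1.21 (SE 0.31, adjusted p = 0.0423). The phosphate uptake genes PHT1-1 and PHT1-4 were not called. In the fits without 1 library, the call of PHO1-2 held, and calls ended for LSI2 without WT1 or WT2, for LSI1 without WT1, WT2 or OE2, for SPX2 without WT1, WT2, OE1, OE2 or OE3 (adjusted p from 0.0607 to 0.131).

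Of 6 potassium and sodium transporters 3 were lower and none higher. After median-ratio scaling 1 was higher and 3 were lower, and without WT3 1 was higher and 4 were lower. HKT8 (LOC_Os01g20160), known to draw sodium out of the xylem sap, measured 24.8, 10.3 and 2.09 TPM in the WT libraries and 0.0940, 0.223 and 0.430 TPM in the OE libraries, a difference of -2.96 (SE 0.70, adjusted p = 0.0351). WT replicate 3 was the lowest WT library and still above all OE libraries. HKT1, a sodium uptake gene, measured 1.58 to 3.37 TPM in WT and 0.0353 to 0.829 TPM in OE, a difference of -1.27 (SE 0.29, adjusted p = 0.0336). HAK1 (LOC_Os04g32920), a potassium uptake gene, measured 179, 174 and 81.7 TPM in the WT libraries and 39.4, 32.7 and 41.6 TPM in the OE libraries, a difference of -1.83 (SE 0.32, adjusted p = 0.0168). AKT1, HAK5 and HAK7 were not called, between -1.06 and 0.94. For nitrogen, NAR2.1 (LOC_Os02g38230), the partner protein of the high-affinity nitrate transporters, measured 93.5, 101 and 56.0 TPM in the WT libraries and 23.9, 8.37 and 19.0 TPM in the OE libraries, a difference of -2.29 (SE 0.40, adjusted p = 0.0171). GS2 (LOC_Os04g56400), a plastid glutamine synthetase gene, measured 75.7 to 117 TPM in WT and 27.8 to 30.7 TPM in OE, a difference of -1.69 (SE 0.20, adjusted p = 0.00647). AMT2-1, an ammonium transporter gene, rose, from 31.8 to 43.9 TPM in WT and 54.1 to 84.6 TPM in OE, a difference of 0.99 (SE 0.24, adjusted p = 0.0365). Leaving out libraries in turn, the call of GS2 held, and calls ended for NAR2.1 without WT1 or WT2, for HKT1, HAK1 and AMT2-1 without WT1, WT2, OE1 or OE2, for HKT8 without WT1, WT2, OE1, OE2 or OE3 (adjusted p from 0.0505 to 0.131). A left-out library moved the difference of HKT8 to -2.25 (without WT1) and -3.78 (without WT3).

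Iron genes had 3 of 13 members lower and 1 higher. VIT2 (LOC_Os09g23300), which stores iron in the vacuole, measured 239.7, 124 and 86.9 TPM in the WT libraries and 20.2, 26.0 and 21.7 TPM in the OE libraries, a difference of -2.55 (SE 0.36, adjusted p = 0.00968). NRAMP5 (LOC_Os07g15370), which takes up manganese and cadmium, measured 37.5, 27.6 and 18.2 TPM in the WT libraries and 9.82, 5.65 and 6.87 TPM in the OE libraries, a difference of -1.74 (SE 0.31, adjusted p = 0.0180). NAS3, a nicotianamine synthase gene, measured 21.5 to 38.3 TPM in WT and 7.19 to 12.0 TPM in OE, a difference of -1.55 (SE 0.28, adjusted p = 0.0175). In these 3 genes every OE library was below every WT library, as in all loci called lower. IRT1, the iron uptake transporter gene, was low in all libraries and higher in OE, at 0.631 to 1.09 TPM in WT and 2.46 to 2.75 TPM in OE, a difference of 1.01 (SE 0.19, adjusted p = 0.0204). Of these genes, when 1 library was left out, the call of VIT2 held, and calls ended for NRAMP5 and NAS3 without WT1, WT2 or OE2, for IRT1 without WT1, WT2, OE1 or OE2 (adjusted p from 0.0565 to 0.0835).

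Aquaporins of the plasma membrane (PIP), the water channels of root cells, had 3 of 10 members lower, none higher and a median of -0.55. PIP1-3 (LOC_Os02g57720) measured 1484, 1420.1 and 946 TPM in the WT libraries and 323, 182 and 265 TPM in the OE libraries, a difference of -2.33 (SE 0.30, adjusted p = 0.00773). PIP2-5 (LOC_Os07g26660) measured 159, 119 and 64.0 TPM in the WT libraries and 22.4, 37.3 and 25.0 TPM in the OE libraries, a difference of -1.92 (SE 0.36, adjusted p = 0.0206). PIP2-3 measured 434 to 637 TPM in WT and 211 to 319 TPM in OE, a difference of -1.10 (SE 0.24, adjusted p = 0.0308). PIP1-1, PIP1-2, PIP2-1, PIP2-2, PIP2-4, PIP2-6 and PIP2-8 were not called, between -1.30 and -0.05. Among 6 tonoplast channels TIP2-1 (LOC_Os02g44080) was lower, with 963, 1149 and 668 TPM in the WT libraries and 199.7, 334 and 314 TPM in the OE libraries, a difference of -1.71 (SE 0.30, adjusted p = 0.0168). TIP3-2, of a type known from seeds, was higher, with 0.1003, 0.143 and 0.125 TPM in the WT libraries and 2.57, 2.097 and 1.56 TPM in the OE libraries, a difference of 1.44 (SE 0.19, adjusted p = 0.00810). TIP3-2 was near 0 in WT, and its level in OE remained low. It was tested through its OE libraries alone, and its WT spread is compressed on the log2(TPM + 1) scale. Under the omission of 1 library, the calls of PIP1-3 and TIP3-2 held, and calls ended for TIP2-1 without WT1, WT2 or OE2, for PIP2-5 and PIP2-3 without WT1, WT2, OE1 or OE2 (adjusted p from 0.05005 to 0.114). With median-ratio scaling PIP2-3 was not called (adjusted p = 0.0550).

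The root marker list overlaps with these transporters, since 4 of its 5 genes had an accepted name, namely LSI1, LSI2, PHO1-2 and HKT8. All 4 fell, with a median of -2.63. Their summed level was 625 to 767 TPM in droughted WT, 103 to 272 TPM in droughted OE, 2058 to 2101 TPM in watered WT and 1848 to 2005 TPM in watered OE. None of the 4 was listed at 0. The photosynthesis list, as a marker of green tissue, had 3 accepted genes. CAB2R (LOC_Os01g41710), a chlorophyll-binding protein gene, measured 237, 369 and 214 TPM in the WT libraries and 96.7, 34.1 and 13.5 TPM in the OE libraries, a difference of -2.86 (SE 0.64, adjusted p = 0.0315). CAB1R measured 94.4 to 219 TPM in WT and 29.4 to 85.5 TPM in OE, and RBCS, of the Rubisco small subunit, 0.359 to 8.79 TPM in WT and 0.689 to 4.81 TPM in OE, with differences of -1.33 (adjusted p = 0.0976) and -0.11 (adjusted p = 0.928). Their sum was 317 to 592 TPM in droughted WT, 43.6 to 186 TPM in droughted OE, 799 to 1115 TPM in watered WT and 328 to 330.3 TPM in watered OE, with none at 0. The part of either marker list in the other results was not tested. With each library left out in turn, calls ended for CAB2R without WT1, WT2 or OE2 (adjusted p from 0.0882 to 0.105). CAB1R passed the test only without WT3 (adjusted p = 0.0445). The omission of 1 library moved the difference of CAB2R to -3.56 (without OE1) and -2.18 (without OE3), that of RBCS to -0.87 (without WT1) and 0.55 (without WT3). With median-ratio scaling CAB2R was not called (adjusted p = 0.0507).

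The remaining lists held few called genes. Compatible solute genes had 1 of 7 higher, RINO1, an inositol phosphate synthase gene (68.5 to 74.3 TPM in WT and 109.8 to 155 TPM in OE), and 2 lower, BADH1, a betaine aldehyde dehydrogenase gene (120.2 to 132 TPM in WT and 63.1 to 91.0 TPM in OE), and ADC1, an arginine decarboxylase gene (489 to 605 TPM in WT and 209 to 361 TPM in OE). Their differences were 0.93 (SE 0.19, adjusted p = 0.0256), -0.74 (SE 0.18, adjusted p = 0.0405) and -1.03 (SE 0.25, adjusted p = 0.0366). Of 11 reactive oxygen enzymes 2 were lower, the ascorbate peroxidases APX2 (453 to 759 TPM in WT and 173 to 295 TPM in OE) and APX7 (273 to 336 TPM in WT and 136 to 143 TPM in OE), with differences of -1.59 (SE 0.31, adjusted p = 0.0217) and -1.17 (SE 0.17, adjusted p = 0.0104). Among 19 CIPK and CDPK kinases, which relay calcium signals, CIPK17 (18.2 to 51.5 TPM in WT and 71.6 to 127 TPM in OE) rose by 1.62 (adjusted p = 0.0411) and CIPK7 (67.0 to 95.9 TPM in WT and 18.2 to 41.5 TPM in OE) had a difference of -1.59 (adjusted p = 0.0228). In that list 2 were higher and 1 lower after median-ratio scaling, and 2 were higher and 3 lower without WT3. In the circadian clock list GI (LOC_Os01g08700) measured 239.6, 246 and 266 TPM in the WT libraries and 120.4, 105 and 89.6 TPM in the OE libraries, a difference of -1.25 (SE 0.18, adjusted p = 0.00985). PRR1, the rice relative of Arabidopsis TOC1, measured 12.4 to 19.7 TPM in WT and 7.16 to 8.03 TPM in OE, a difference of -0.92 (SE 0.22, adjusted p = 0.0367). PRR95 (LOC_Os09g36220) measured 7.36, 4.48 and 17.6 TPM in the WT libraries and 72.4, 55.3 and 26.2 TPM in the OE libraries, a difference of 2.35 (SE 0.53, adjusted p = 0.0314). Clock genes were thus called in both directions, GI and PRR1 lower and PRR95 higher. The metallothionein MT1A was not called at -1.17, though it was called lower without WT3. With 1 library left out at a time, the call of GI held, and calls ended for APX7 without WT2 or OE2; CIPK7 without WT1, WT2 or OE2; RINO1, BADH1, APX2 and PRR95 without WT1, WT2, OE1 or OE2; ADC1 without WT1, WT2, OE2 or OE3; CIPK17 and PRR1 without WT1, WT2, OE1, OE2 or OE3 (adjusted p from 0.0519 to 0.135). With median-ratio scaling BADH1, ADC1 and PRR1 were not called (adjusted p from 0.0662 to 0.101).

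**Figure D4:**
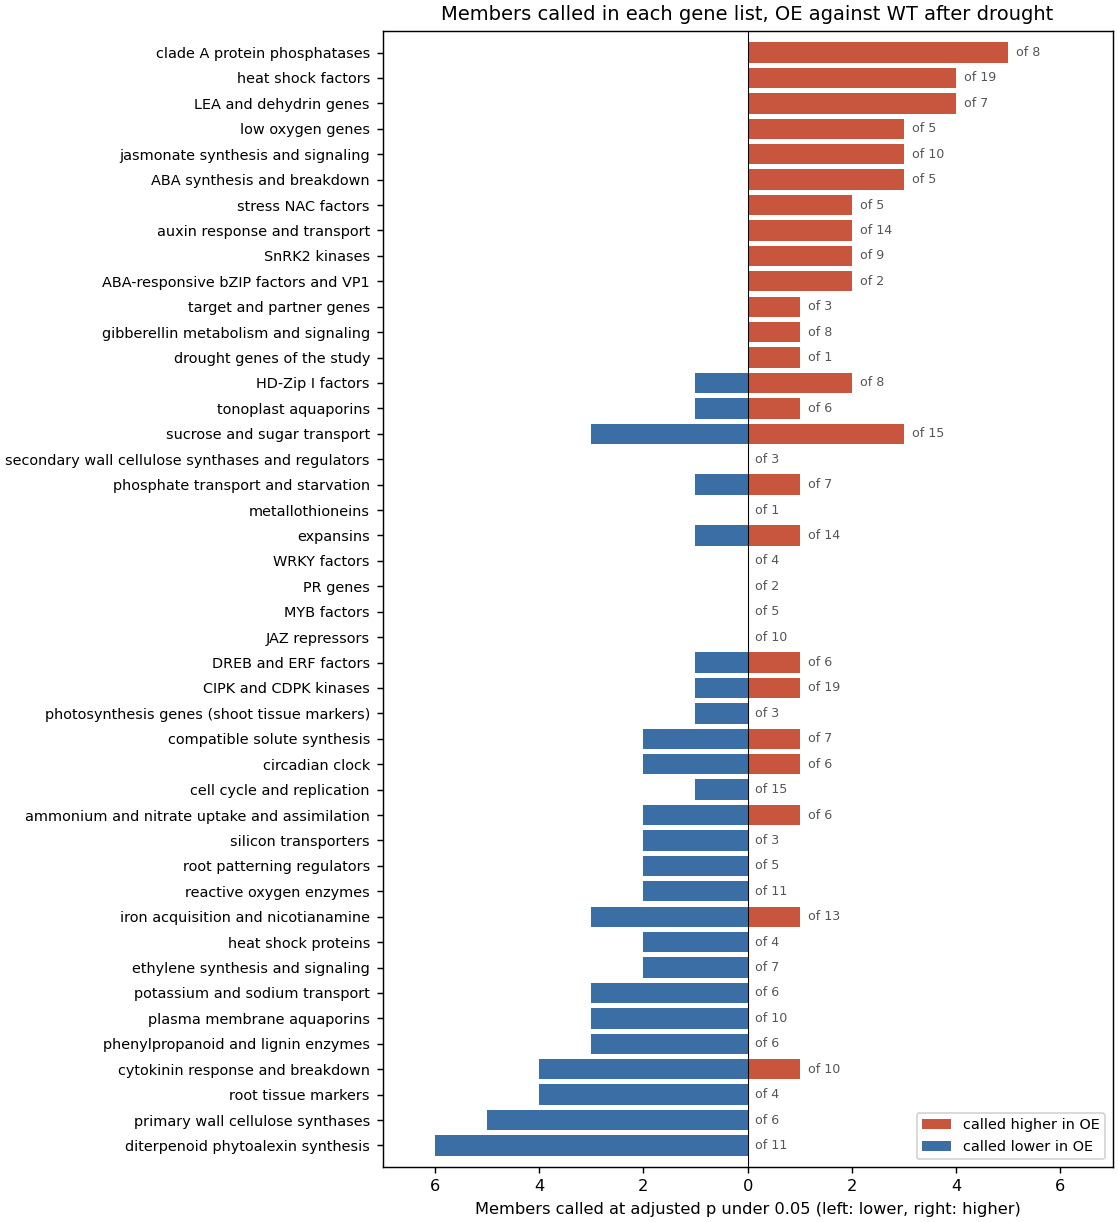
Number of members called at an adjusted p under 0.05 in each of the 44 gene lists with tested members, higher in OE to the right and lower to the left, with the number tested beside each bar. Clade A protein phosphatases have 5 of 8 members higher and diterpenoid phytoalexin synthesis 6 of 11 lower.

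The watered libraries, 3 of WT and 2 of OE, allowed the drought difference to be set beside the difference in unstressed roots. Over all tested loci the 2 differences correlated weakly, with a Pearson r of 0.11 and a Spearman rho of 0.16 across loci, a description over 22123 loci that share their libraries. The watered difference was above 0 for 60.79% of loci called higher after drought, 43.77% of those called lower and 55.4% of all tested loci. Watered OE and WT libraries did not overlap in 57.5% of tested loci. Among the 101 named genes called after drought, 40 had watered libraries that differed without overlap in the same direction, 34 overlapped and 27 differed without overlap in the opposite direction. Over all 3543 called loci, 38.2% were apart in the same direction and 23.3% in the opposite one. The drought difference differed from the watered difference, by the interaction contrast of a limma fit over all 11 libraries, in 16.5% of all tested loci. It did so in 76 of the 101 genes and in 68.8% of all called loci, but the contrast holds the drought difference by which these were called, so nothing is read from the higher shares. This fit also shares its spread per locus over groups of unequal spread. Libraries of the same group correlated at 0.995 to 0.9964 when watered and at 0.9166 to 0.9793 after drought. SEs and adjusted p-values of the contrast may thus look firmer than the droughted libraries alone would allow.

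OsNMCP1 itself measured 35.5, 37.6 and 36.3 TPM in the WT libraries and 184 and 167 TPM in the OE libraries when watered, a difference of 2.24. The drought difference exceeded it by 1.20 (SE 0.26, adjusted p = 0.0148). Of the 27 genes with opposite directions, 10 had a watered difference of at least 0.5 in size, a limit chosen after the values were seen. All 27 passed the interaction contrast, which this choice of genes favours, so the changes below describe their size and are no independent test. VIT2 (LOC_Os09g23300) measured 9.87, 10.9 and 9.25 TPM in the WT libraries and 68.5 and 62.9 TPM in the OE libraries when watered, so it was higher in OE with water and lower after drought, and the change of the difference was -5.16 (SE 0.44, adjusted p = 0.000213). DREB1A measured 8.09, 12.6 and 7.51 TPM in the WT libraries and 24.3 and 25.0 TPM in the OE libraries when watered, and the change of its difference was -3.82 (SE 0.44, adjusted p = 0.000893). In WT both genes were higher in every droughted than in every watered library, and in OE the droughted libraries lay near the watered level or below it. Watered and droughted RNA libraries were registered in separate blocks, so drought cannot be told apart from other differences between these blocks. NAC5 measured 293, 309 and 299 TPM in the WT libraries and 202 and 199 TPM in the OE libraries when watered, lower in OE, and the change was 3.60 (SE 0.23, adjusted p = 6.25e-05).

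The low-oxygen genes HB2 and ADH1 were lower in watered OE roots, HB2 at 861, 892 and 826 TPM in the WT libraries and 475 and 529 TPM in the OE libraries and ADH1 at 121, 112 and 119.9 TPM in the WT libraries and 69.2 and 70.8 TPM in the OE libraries. The changes of their differences were 2.26 (SE 0.36, adjusted p = 0.00428) and 2.26 (SE 0.22, adjusted p = 0.000439). KAO measured 6.03, 5.16 and 4.80 TPM in the WT libraries and 1.99 and 1.41 TPM in the OE libraries when watered, with a change of 2.35 (SE 0.29, adjusted p = 0.00132), and SWEET14 measured 29.0, 30.6 and 29.0 TPM in the WT libraries and 52.5 and 55.1 TPM in the OE libraries, with a change of -2.57 (SE 0.35, adjusted p = 0.00215). For HSFC2A (-0.61 when watered), PRR95 (-0.50) and HOX13 (0.53) the changes were 3.56 (SE 0.71, adjusted p = 0.0106), 2.85 (SE 0.65, adjusted p = 0.0184) and -1.95 (SE 0.41, adjusted p = 0.0133). With 1 library left out, the changes of OsNMCP1, HOX13 and PRR95 did not pass without OE normal replicate 1 (adjusted p = 0.0586, 0.0648 and 0.0757) or without OE normal replicate 2 (0.0768, 0.0621 and 0.0788). That of HSFC2A did not pass without OE normal replicate 1 (0.0599).

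**Figure D5:**
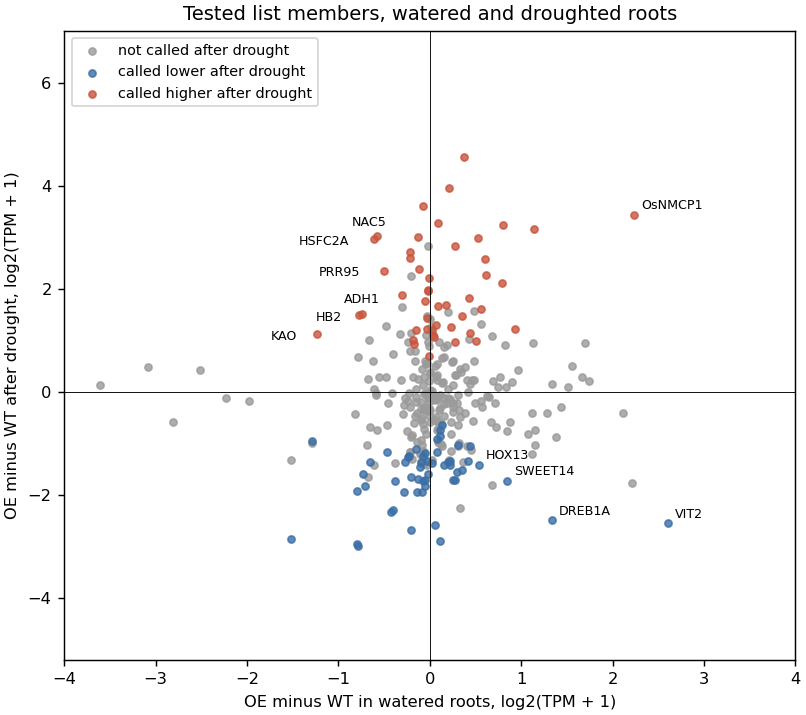
Difference OE minus WT in log2(TPM + 1) after drought (y axis) against that in watered roots (x axis) for the tested named genes, 1 point per gene, coloured by the call after drought. OsNMCP1 is labelled with the 10 genes whose difference is opposite in watered roots, such as VIT2 at 2.60 watered and -2.55 after drought.

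Among loci without an accepted name the rule took 2 rises and 2 falls. LOC_Os03g48690, on chromosome 3, 27752287 to 27755346, was listed at 0 in every WT library and measured 83.1, 100.8 and 123.2 TPM in the OE libraries. It was also listed at 0 in all 5 watered libraries, so no fold is given, and its difference was 6.67 (SE 0.21, adjusted p = 0.000143). This locus was tested through its OE libraries alone and had no spread in WT. Leaving out a WT library could not move its difference, so nothing is read from its call holding there. LOC_Os01g42370, on chromosome 1, 24065207 to 24073621, measured 1.18, 0.980 and 1.46 TPM in the WT libraries and 175, 40.4 and 176 TPM in the OE libraries, a difference of 5.63 (SE 0.55, adjusted p = 0.00358). In these 2 loci the groups were far apart. LOC_Os04g54240, on chromosome 4, 32301622 to 32302456, measured 144, 62.6 and 15.3 TPM in the WT libraries and 0.526, 1.06 and 1.51 TPM in the OE libraries, a difference of -4.74 (SE 0.73, adjusted p = 0.0114). LOC_Os04g11060, on chromosome 4, 6011867 to 6012149, measured 272, 136 and 55.3 TPM in the WT libraries and 5.96, 3.74 and 2.38 TPM in the OE libraries, a difference of -4.73 (SE 0.56, adjusted p = 0.00667). Both were also lower in watered OE, at 38.5 to 45.3 TPM against 58.8 to 93.9 TPM and at 129.5 to 133 TPM against 239 to 265 TPM. When single libraries were left out, the calls of LOC_Os03g48690, LOC_Os01g42370 and LOC_Os04g11060 held, and calls ended for LOC_Os04g54240 without WT2 (adjusted p = 0.0565). Single omissions moved the difference of LOC_Os01g42370 to 6.32 (without OE2), that of LOC_Os04g54240 to -4.02 (without WT1) and -5.59 (without WT3), that of LOC_Os04g11060 to -5.33 (without WT3).

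Called loci were also sorted by length, level and chromosome. By the length of the gene in the files' coordinates, 13.0% of loci under 1000 bases were called higher, 8.23% of those from 1000 to 2000 bases, 4.63% from 2000 to 4000, 3.93% from 4000 to 8000 and 2.53% of longer ones. Calls lower in OE showed no such gradient, with 9.1% to 12.0% per class. By level, which comes from the TPM values that were tested, 9.21% of loci with a mean over 100 TPM were called higher and 7.02% lower, against 4.04% and 11.7% of those between 5 and 10 TPM. Below 2 TPM the shares were 7.01% and 9.14%, so they did not change steadily with level. By chromosome, 4.62% to 7.01% of loci were called higher and 9.08% to 12.7% lower over the 12 chromosomes. These shares are descriptions, and loci of a class are not independent of each other.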

How the data were processed

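Total RNA of rice roots was sequenced in 11 libraries, 3 WT and 3 OE after drought and 3 WT and 2 OE watered. Another 18 samples, of ATAC-seq, were not analysed here. For each locus the authors deposited coverage (a signal, mean reads per base), FPKM (per length and library size) and TPM (FPKM rescaled to 1000000 per library). Per the submitters' processing notes, which give no roles, the tools were fastp, FastQC 0.11.8, STAR 1.5.2, SAMtools 1.9, StringTie 1.3.6, DESeq2, Bowtie2 2.2.6, Picard 2.60, MACS2 2.1.0 and DiffBind. Which genome build, annotation and strand setting were used is not stated in the labels, so overlapping genes cannot be told apart. Read counts were not used, so no counting interval is given. An exact 0 may be a failed estimate. The median ratio of coverage to FPKM over loci implied 7.0 to 11.95 gigabases per droughted library.

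Values were tested as log2(TPM + 1) in loci with at least 1 TPM in at least 2 of the 6 droughted libraries. The test was limma 3.58.1 in R 4.3.3 with a mean-variance trend, 2-sided, with Benjamini-Hochberg adjustment over all tested loci and a threshold of 0.05. It had 4 residual and 3.07 prior degrees of freedom. Folds on this scale understate changes of low genes. The scale also compresses the spread of values below 1 TPM. Genes below 1 TPM in every library of a genotype were tested through the other genotype alone. The change between watered and droughted differences came from a group-means limma fit over all 11 libraries, whose spread is shared over groups of unequal spread. OsNMCP1 also had an exact permutation test. The script was tested on simulated data. Tables and figures were made with matplotlib 3.10.9, pandas 2.3.3 and numpy 2.4.6 under Python 3.11.15. Alternatives were median-ratio scaling, pseudocounts of 0.1 and 5, other filters, FPKM, each library left out, a replicate block, a fit over 11 libraries, array weights and robust moderation, and 1 more was added after seeing the data. Replicate numbers did not pair the libraries.

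The gene lists, like the choice of the comparison, were made with earlier results of these data known. Gene names came from a RefSeq table of assembly ASM3414082v1. A name was accepted where symbol and chromosome matched, positions lay within 5 Mb and the length ratio was between 0.9 and 1.1. Of 583 loci written down, 350 were accepted, 69 of them with equal length, 75 were refused, 1 was not listed, 153 were without a symbol there and 4 were withdrawn because 2 loci matched 1 gene or the neighbouring genes lay elsewhere. Of 58300 randomly drawn pairings 0.139% were accepted. Some names, such as those of CYP99A2 and CYP99A3, and the 4 withdrawals were settled after the files had been seen. The lists of ABA receptors, C2H2 factors and strigolactone genes had no tested members. The text names OsNMCP1, NMCP1A, SWI3C, the 15 largest rises and falls among called named genes whose libraries did not overlap and whose higher group averaged at least 5 TPM, the 5 members of each list with the lowest adjusted p, lists of up to 6 in full, and 2 unnamed loci each way. Other called members were added after their values were seen, and 1 of the 101 is not reported here. Promoter sequences were not used here.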

Additional observations from a re-analysis of the deposited data

Results flagged for a closer look

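For 11 named genes the OE minus WT difference in log2(TPM + 1) after drought differed from that in watered roots by the interaction contrast of limma. They are OsNMCP1 and the 10 called genes whose watered libraries were apart in the opposite direction with a difference of at least 0.5 in size, a limit chosen after the values were seen. The 10 genes were taken from 27 with opposite directions, all of which passed the contrast. That choice favours a change of the difference, so their values are descriptions and no independent test. The change, drought minus watered, was above 0 for OsNMCP1 (1.20), NAC5 (3.60), HSFC2A (3.56), PRR95 (2.85), KAO (2.35), ADH1 (2.26) and HB2 (2.26). It was below 0 for VIT2 (-5.16), DREB1A (-3.82), SWEET14 (-2.57) and HOX13 (-1.95). OsNMCP1 was higher in OE under both conditions, and the other 10 changed direction. Median-ratio scaling and the replicate block ended none of these 11 calls. The watered OE group had 2 libraries, and leaving out either of them ended the calls of OsNMCP1, HOX13 and PRR95 at the values given with the watered libraries. Groups of 3 libraries are too small for a test of single outlying samples, and no such test was made.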

How the results depend on the processing

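OsNMCP1 was called in every fit over the droughted libraries, with a difference from 3.25 to 3.81. The counts of 1270 loci higher and 2273 lower, and of 47 and 54 list members, stayed within 1.5 times their size with pseudocounts of 0.1 and 5, FPKM and robust moderation. Median-ratio scaling gave 1203 loci and 35 members lower. With no filter on low values 1465 loci and 31 members were lower, and with a mean of at least 5 TPM 819 loci were higher and 1446 lower. A fit over all 11 libraries called 2853 higher and 6125 lower (71 and 98 members), and array weights 3516 and 6590 (75 and 109 members). Without WT replicate 3 and with median-ratio scaling, an alternative added after seeing the data, 3175 were higher. Leaving out 1 library gave 314 to 2542 loci higher and 283 to 3775 lower, and 17 to 66 members higher and 10 to 87 lower. The 3647 loci whose difference changed between watered and droughted roots became 1035 without watered OE replicate 2 and 7289 without droughted WT replicate 3, with the other omissions between. Fits without 1 library have fewer samples. For the rest the cause was not tested.

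Same-numbered libraries did not deviate together (correlations of -0.04, 0.02 and -0.14), so the replicate numbers were not taken as pairs. With the replicate block 685 loci were higher and 803 lower, with 31 members higher, and fewer residual degrees of freedom were left.

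Signs turned for 3 genes that were never called. NMCP1A became 0.11 with median-ratio scaling, 0.076 with array weights, 0.21 in the added alternative and 0.005 without WT replicate 3, and its lowest value with a library left out was -0.24. RAB16D became -0.66 without WT replicate 1, -0.04 without OE replicate 1 and -0.30 without OE replicate 2, with a highest value of 0.82. RBCS became 0.049 with median-ratio scaling, 0.017 with a pseudocount of 0.1, 0.53 with array weights, 0.67 in the added alternative, 0.43 without OE replicate 3 and 0.55 without WT replicate 3, with a lowest value of -0.87. Of 119 named genes, 98 kept their direction and their side of the threshold with median-ratio scaling, 81 with the block and 46 without WT replicate 2. The motif search in promoters was not run.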
